A study of Mus musculus with 30 samples.

Results

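Livers of 3 female mice given a decoction of chicory root flour of genotype G12 were set against livers of 3 female mice given water (control 1). These 6 arrays, chosen by their sample titles, were part of 30 arrays in all. On the array of G12 replicate 2 a local block of features had lost signal, and 220 features lying more than 2 log2 below the median of the 8 other female arrays of the chicory experiment were left out on that array alone. The left-out feature nearest to that threshold lay 2.01 log2 below the median, and the nearest kept one 2.00 below it.

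The study gavaged mice of both sexes with a decoction of chicory G12 or G35, with inulin, or with water, and measured liver RNA on one-colour (Cy3) Agilent arrays, 1 mouse per array. G12 females received 500 µl of decoction a day, made from 10 mg of root powder per mouse, and control 1 females received the same volume of water. All mice were 8 weeks old at the start, ate standard chow and drank water freely, and the gavages lasted 30 days before the central core of the left liver lobe was taken. The strain, any transgene and the hour of tissue collection are not given in the sources used here. G35 females, used below for 1 comparison, were gavaged in the same way with the other chicory genotype, and male G12 and male control 1 mice were treated as their female counterparts.

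Chicory root stores inulin, a fructan that mammalian enzymes do not digest and that gut bacteria ferment. The liver receives what the gut absorbs through the portal vein, and it adjusts the transcripts of glucose, lipid and bile acid metabolism to feeding. Many of these transcripts also follow the hepatic circadian clock, in which CLOCK and BMAL1 activate genes such as Per1 through E-box motifs and the PER and CRY proteins repress their own activation.

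All values below are log2 normalized intensities, 1 value per gene and array, and differences are G12 minus control 1 on that scale, with the standard error (SE) of limma's fit. Array medians before normalization lay at 188, 228 and 283 intensity units in G12 and at 162, 201 and 267 in control 1; with 3 mice a group, the precision is limited by their number. The summed level of 12 hepatocyte markers lay at 18.4 to 18.7 in G12 and 18.3 to 18.7 in control 1. Female-specific Cyp3a44 lay at 12.07 or higher in every female of the chicory experiment and at 8.20 or lower in every male. Replicate 1 of both groups lay on slide 6 and replicate 2 of both on slide 4, while replicate 3 lay on slide 2 in G12 and on slide 1 in control 1. The loss of signal on the array of G12 replicate 2 faded gradually with distance from the left-out features, which spanned lines 229 to 319 and positions 31 to 54 of the feature layout. The area within 35 lines and 8 positions of that span, here the dimmed zone, held the probes of 1395 genes, 15.5% of those tested. By the same measure, control 1 replicates 1, 2 and 3 had 6, 8 and 130 features more than 2 log2 low. G12 replicates 1 and 3 had 0 and 54, and all of these features were kept.

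The main comparison asked which transcripts set the livers of G12 females apart from those of control 1 females. Of 8996 genes, 5 passed at an adjusted p (limma, Benjamini-Hochberg over all genes) under 0.05, which is 0.0556%, and all 5 fell in G12. They were Tob2, of the antiproliferative BTG/TOB family that recruits the CCR4-NOT deadenylase, Pfkl, the liver subunit of phosphofructokinase in glycolysis, Hspg2, which encodes the basement membrane proteoglycan perlecan, Aatf, a nucleolar and transcriptional cofactor that restrains apoptosis, and Celf1, an RNA-binding protein of splicing and mRNA decay. In whole liver tissue, fewer cells of a type and less RNA per cell cannot be told apart.

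Tob2 had 7.98, 7.57 and 8.43 in G12 livers, against 9.78, 9.67 and 10.02 in control 1 livers. Every G12 value lay more than 1 log2 below every control, and Tob2 fell by 1.83 ± 0.27, which is 3.55-fold (adjusted p = 0.00385). Pfkl had 7.10, 6.95 and 7.17 in G12 livers, against 7.80, 7.66 and 7.63 in control 1 livers. The groups did not overlap, and Pfkl fell by 0.63 ± 0.11 (adjusted p = 0.0185). Hspg2 had 7.43, 5.86 and 7.37 in G12 livers, against 8.86, 8.47 and 8.07 in control 1 livers. Its lowest value by a wide distance was that of G12 replicate 2, and the difference was -1.58 ± 0.28 (adjusted p = 0.0185). Aatf had 7.12, 6.27 and 6.77 in G12 livers, against 8.05, 8.07 and 7.43 in control 1 livers. The groups did not overlap, with G12 replicate 2 again lowest, and Aatf differed by -1.13 ± 0.20 (adjusted p = 0.0185). Celf1 had 8.16, 7.86 and 8.22 in G12 livers, against 8.84, 8.69 and 8.86 in control 1 livers. It differed by -0.71 ± 0.13 (adjusted p = 0.0251), but this rests on 1 of its 3 probes: the other 2 probes, which lie outside the dimmed zone, had differences of 0.09 and 0.05.

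**Figure D1:**
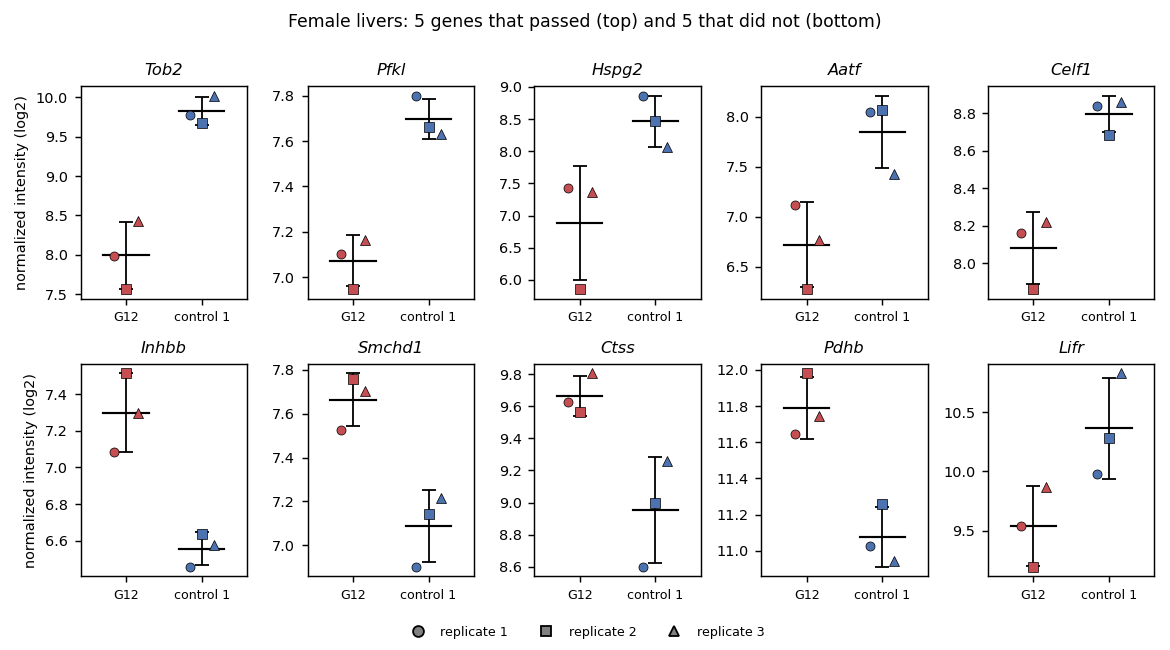
Normalized log2 intensity (vertical axes, which start above 0 and differ between panels) of 10 genes in the 3 G12 and 3 control 1 female livers; points are mice, with the marker shape giving the replicate number, and lines and bars are means ± SD. The upper 5 genes passed and lay lower in every G12 liver, with G12 replicate 2 lowest each time; the lower 5 did not pass, and the groups of each do not overlap.

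The probes of all 5 genes lay in the dimmed zone of G12 replicate 2, and Tob2 and Hspg2 lay inside the span of the left-out features themselves. Around the Hspg2 probe, the neighbouring features on that array had a median difference of -2.08 from the other female chicory arrays. The same local difference was -1.01 around Aatf, -0.71 around Tob2, -0.46 around Celf1 and -0.19 around Pfkl. The other G12 arrays, which do not carry this zone, were also below every control 1 array for each of the 5 genes. Within slide 6, which holds replicate 1 of both groups, the differences were -1.80 for Tob2, -0.70 for Pfkl, -1.43 for Hspg2, -0.93 for Aatf and -0.68 for Celf1. Within slide 4, where G12 replicate 2 lies, they were -2.10, -0.72, -2.61, -1.79 and -0.82 in the same order.

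**Figure D2:**
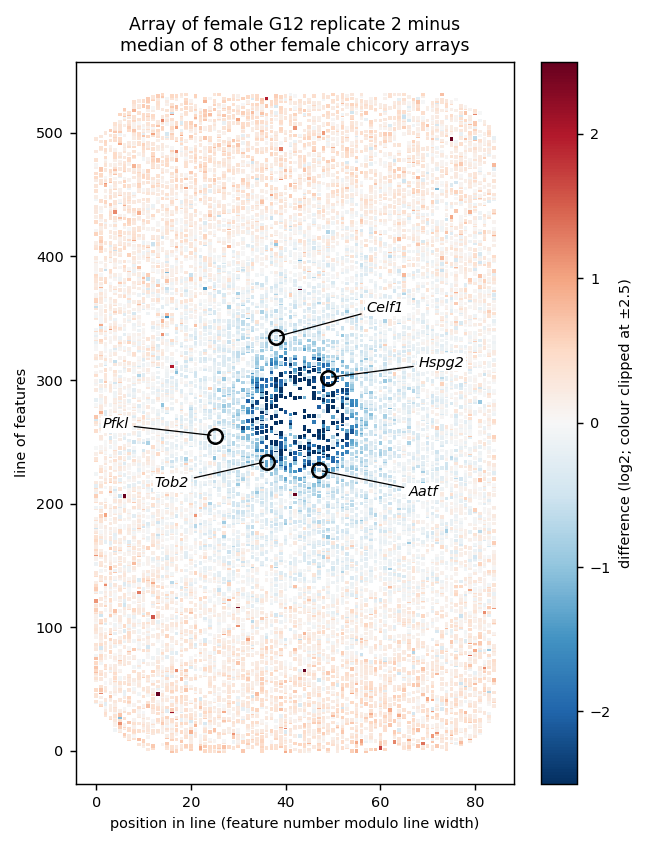
Each square is 1 feature of the array of G12 replicate 2, placed by its position in a line (horizontal axis) and its line (vertical axis) and coloured by its log2 difference from the median of the 8 other female chicory arrays. A block with a median difference of -1.48 sits in the middle and fades outward, and the 5 circled genes are those that passed.

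Leaving out every feature of the dimmed zone on that array left 0 genes past the threshold in limma, with 763 genes at an unadjusted p under 0.05 (5.01% of all genes higher and 3.47% lower). Tob2 then had a difference of -1.62 (adjusted p = 0.0912), Hspg2 of -1.06 (0.105), Aatf of -0.91 (0.148), Pfkl of -0.56 (0.148) and Celf1 of -0.60 (0.173), each with 2 G12 mice in place of 3. Leaving out only the span of the left-out features as a whole, 4 genes passed (0.0445%). Without the whole array of G12 replicate 2, 0 genes passed as well, with 694 at an unadjusted p under 0.05. With the zone left out and slide in the model, Hspg2 (adjusted p = 0.0291) and Aatf (0.0335) passed and the other 3 did not. For genes in the zone, that fit had both groups together only on slide 6, with replicate 1 of each. Its differences, -1.44 for Hspg2 and -0.93 for Aatf, thus rest largely on 1 pair of mice, which differed by -1.43 and -0.93. What part the zone has in the 5 calls beyond these values was not tested. Without G12 replicate 1, 3 genes passed, with Pfkl (adjusted p = 0.0556) and Celf1 (0.0583) lost, and without control 1 replicate 1 only Tob2 passed (0.0294). Aatf was lost without G12 replicate 3 (0.0564) and Celf1 without control 1 replicate 3 (0.126), and without control 1 replicate 2 the count was 33 (16 higher and 17 lower). A model that paired mice by replicate number as a block called 4 of the 5 genes as lower (0.0445%) and left Celf1 at an adjusted p of 0.0900. It called 1 gene as higher (0.0111%), Pdhb, a subunit of pyruvate dehydrogenase (adjusted p = 0.0477).

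Across all genes the zone was visible in the direction of the differences. Of the 1395 genes in the zone, 249 (17.8%) were lower in G12 at an unadjusted p under 0.05 and 9 (0.645%) were higher. Outside it, 234 of 7601 genes (3.08%) were lower and 413 (5.43%) were higher. Over all genes these shares were 5.37% lower and 4.69% higher, 10.1% together. Groups of 3 that did not overlap were found for 493 genes higher in G12 (5.48%) and 446 lower (4.96%), 10.4% in all. Within slide 4, which holds G12 replicate 2, the median difference was -0.43 in the zone and 0.14 outside it. Within slide 6 these medians were 0 and -0.02, and between the replicate 3 arrays -0.07 and -0.03.

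**Figure D3:**
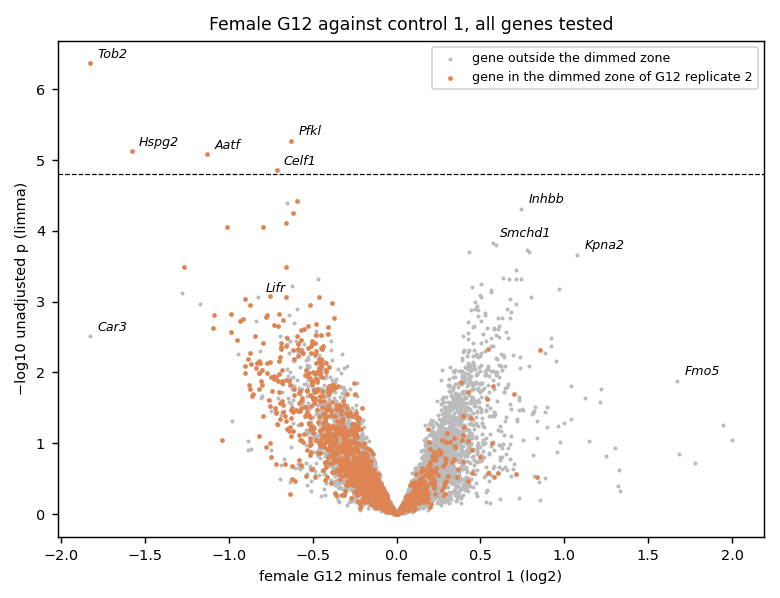
Difference between female G12 and female control 1 (horizontal axis, log2) against the unadjusted limma p (vertical axis, −log10) for 8996 genes; orange points lie in the dimmed zone of G12 replicate 2, grey points outside it, and the dashed line marks where genes pass. The 5 genes above the line are all orange and all lower in G12, and the genes nearest to it on the right are grey.

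The genes nearest to the threshold among those higher in G12 all lay outside the dimmed zone. Inhbb, which encodes the beta B subunit of activin and inhibin, had 7.09, 7.51 and 7.30 in G12 livers, against 6.46, 6.64 and 6.58 in control 1 livers. Its values did not overlap, and its difference was 0.74 ± 0.15 (adjusted p = 0.0545). Smchd1, a chromatin protein that maintains X inactivation, had 7.53, 7.76 and 7.70 in G12 livers, against 6.90, 7.14 and 7.22 in control 1 livers. The difference of 0.58 ± 0.13 missed the threshold (adjusted p = 0.101), and the other Smchd1 probe had a difference of -0.18. Kpna2, an importin alpha that carries proteins into the nucleus, had 10.71, 10.35 and 11.39 in G12 livers, against 9.66, 9.80 and 9.77 in control 1 livers. The 3 controls lay close together and the G12 livers spread over more than 1 log2, with a difference of 1.07 ± 0.25 (adjusted p = 0.108). Ctss, the lysosomal protease cathepsin S, had 9.62, 9.56 and 9.80 in G12 livers, against 8.60, 9.00 and 9.26 in control 1 livers. That difference of 0.71 ± 0.17 had an adjusted p of 0.154. On the array of G12 replicate 2, the local difference was 0.36 around Smchd1, 0.17 around Ctss, -0.01 around Inhbb and -0.10 around Kpna2. Over all features of that array the median was 0.07. What part such local shifts have in the higher values was not tested.

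The other 8 of the 12 higher genes with the lowest p did not pass either. Usp16, a deubiquitinase of histone H2A, had 9.05, 9.07 and 9.09 in G12 livers, against 8.43, 8.46 and 8.00 in control 1 livers, a difference of 0.78 ± 0.18 (adjusted p = 0.106). Pdhb had 11.64, 11.98 and 11.74 in G12 livers, against 11.03, 11.26 and 10.94 in control 1 livers. Its difference was 0.71 ± 0.18 (adjusted p = 0.165), and that of Sumo2, a small protein modifier, 0.67 ± 0.17. Emc4, of the endoplasmic reticulum membrane insertion complex, differed by 0.60, Map3k1, a kinase of the JNK cascade, by 0.43, and Net1, an activator of RhoA, by 0.74. Stx7, an endosomal syntaxin, differed by 0.63, with control 1 livers at 7.22, 7.53 and 6.65. Dynlt1c, a dynein light chain with near-identical copies that 1 probe may not tell apart, differed by 0.79. Its control 1 livers had 9.48, 9.43 and 8.70, so control 1 replicate 3 was the lowest for Stx7 and Dynlt1c. Adjusted p values of the 8 genes ran from 0.103 for Emc4 to 0.165 for Pdhb, Net1, Stx7 and Sumo2.

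Below the controls, Hdac4 was the 1 gene outside the zone among the 12 lower genes with the lowest p. Hdac4, a class IIa histone deacetylase, had 6.02, 6.36 and 6.11 in G12 livers, against 7.01, 6.77 and 6.67 in control 1 livers. The groups did not overlap, and the difference was -0.66 ± 0.13 (adjusted p = 0.0522). The G12 values of Hdac4 lay near the bottom of the scale, where female-specific Cyp3a44 had 5.75 in its lowest male. The size of the Hdac4 difference is therefore uncertain. Inside the zone, Slc29a1, the nucleoside transporter ENT1, had 11.01, 11.13 and 11.48 in G12 livers, against 12.34, 11.92 and 12.38 in control 1 livers. Its difference was -1.01 ± 0.22 (adjusted p = 0.0670), and G12 replicate 2 was not its lowest array. Slc35d1, a transporter of nucleotide sugars, had 8.89, 8.73 and 8.74 in G12 livers, against 10.91, 9.35 and 9.90 in control 1 livers. The G12 livers agreed within 0.2 log2 of one another, and the controls ranged widely, with a difference of -1.26 ± 0.30 (adjusted p = 0.146). Clec16a (-0.59), Armc6 (-0.61), Fbxl6, an F-box protein (-0.66), and Kat2a, the histone acetyltransferase GCN5 (-0.80), had adjusted p values from 0.0522 to 0.0670, and all 4 lay in the zone. Fbxl6 had 6.06, 6.33 and 6.40 in G12 livers, also near the bottom of the scale.

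Among genes at an unadjusted p under 0.05, those with the largest differences included 1 that rested on a single mouse, Fmo5. Fmo5, a flavin monooxygenase, had 12.57, 12.51 and 12.60 in G12 livers, against 12.34, 12.27 and 8.06 in control 1 livers. Control 1 replicate 3 alone made the difference of 1.67 ± 0.62, and without 1 array at a time it ranged between 0.26 and 2.40. Car3, the carbonic anhydrase of liver, muscle and fat, had 10.67, 10.50 and 8.89 in G12 livers, against 12.01, 12.13 and 11.39 in control 1 livers. All G12 values lay below all controls, with a difference of -1.82 ± 0.55 (adjusted p = 0.261). Car3 is 1 of the 3 measured adipocyte markers. Their summed level, which includes Car3 itself, lay at 10.4 to 11.3 in G12 and 11.7 to 12.4 in control 1. The other 2 markers were not lower, with differences of 0.01, the median of that list, and 0.23. The part of fat in the Car3 difference was not tested. Slc25a25, a mitochondrial carrier of ATP-Mg, had 8.73, 8.60 and 8.74 in G12 livers, against 10.48, 9.90 and 9.53 in control 1 livers, a difference of -1.28 ± 0.33 (adjusted p = 0.194). Apoa4, an apolipoprotein of triglyceride-rich particles, had 11.27, 10.30 and 11.32 in G12 livers, against 9.62, 9.83 and 9.82 in control 1 livers. It separated the groups with a difference of 1.21 ± 0.51 (adjusted p = 0.409). Gm4737 had a difference of 1.22 and Tox4 of 1.12.

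With slide as a block in the model, which removes differences between slides, 290 genes passed (3.22%), 110 higher (1.22%) and 180 lower (2%). Of the 180 lower genes 150, or 83.3%, lay in the dimmed zone, which holds 15.5% of all genes. With only the span of the left-out features removed as a whole, 77 genes were higher (0.856%) and 84 lower (0.934%). With slide in the model and the zone left out, 33 genes passed, 22 higher (0.245%) and 11 lower (0.122%), and 28 of them were among the 290. The slide-adjusted rises that remained included Inhbb (0.81, adjusted p = 0.0297), Smchd1 (0.62, 0.0297), Ctss (0.74, 0.0297), Sumo2 (0.60, 0.0386) and Rps7, a ribosomal protein (0.66, 0.0390). Dync1i2, an intermediate chain of cytoplasmic dynein, had 0.80 (adjusted p = 0.0291) and Coa6, an assembly factor of cytochrome c oxidase, 0.64 (0.0297). Below the controls remained Hspg2 (-1.44, adjusted p = 0.0291), Aatf (-0.93, 0.0335), Hdac4 (-0.67, 0.0390), Slc35d1 (-2.12, 0.0297), Man1b1, a mannosidase of glycoprotein quality control (-0.73, 0.0297), and Lifr (-0.87, 0.0297). For Hspg2, Aatf, Slc35d1 and Man1b1, which lie in the zone, only slide 6 then held both groups, with replicate 1 of each. All of these calls depended on slide being in the model, since 0 genes passed with the zone left out but without slide. Inhbb then had 0.74 (adjusted p = 0.105), Ctss 0.71 (0.209), Dync1i2 0.63 (0.280) and Hdac4 -0.66 (0.105). In the same fit, Man1b1 had -0.30 (adjusted p = 0.688), Slc35d1 -1.24 (0.272) and Coa6 0.40 (0.620). The groups of Man1b1, Coa6 and Dync1i2 overlapped.

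Lifr encodes the receptor of leukaemia inhibitory factor, which signals through gp130, JAK1 and STAT3. It had 9.54, 9.20 and 9.87 in G12 livers, against 9.98, 10.28 and 10.83 in control 1 livers. The highest G12 liver lay just below the lowest control, and without slide in the model the difference was -0.83 ± 0.22 (adjusted p = 0.194). Within slide 6 the difference was -0.44 and within slide 4 it was -1.09. The other Lifr probe had a difference of -0.04, so the probes of this gene disagreed. Its list, receptors of the interleukin 6 family with JAK and STAT genes, had 8 of 19 measured members above control 1 and 11 below, with a median of -0.02. Stat3 and Jak2, both in the dimmed zone, had differences of -0.89 (adjusted p = 0.303) and -0.64 (0.347). The groups of Stat3 did not overlap, and its slide-adjusted difference passed with the zone kept (adjusted p = 0.0463). With the zone left out the Stat3 difference was -0.76 (adjusted p = 0.529), and with slide also in the model it did not pass. Jak2 had 7.43, 6.06 and 7.61 in G12 livers, against 7.52, 7.81 and 7.67 in control 1 livers, so that 1 array carried its difference; with the zone left out it was -0.15.

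Gene lists are described by their counts and medians beside those of all genes, whose median difference was 0.01 and of which 51.2% had a difference above 0. Of the 5 genes that passed, Pfkl is in the list of glycolysis and fructose metabolism and Aatf in that of apoptosis and p53 targets; no member of the other lists passed. Cholesterol synthesis had the lowest median of the pathway lists, with 15 of 18 measured members below control 1 and a median of -0.28. Only Pmvk, phosphomevalonate kinase, reached an unadjusted p under 0.05 in it, and Pmvk lies in the zone. It had 10.21, 9.17 and 10.15 in G12 livers, against 10.75, 10.61 and 10.62 in control 1 livers. The other G12 livers were also below all controls, with a fitted difference of -0.82 ± 0.28 (adjusted p = 0.316) and of -0.48 with the zone left out. Msmo1, the sterol C4-methyl oxidase, was left out on G12 replicate 2 and had 9.88 and 10.16 in the other G12 livers, against 10.99, 11.50 and 10.69 in control 1 livers. Its difference of -1.04 was fitted on 2 G12 mice (adjusted p = 0.578). Idi1, isopentenyl diphosphate isomerase, had -0.78 and Stard4, a sterol carrier, -0.49.

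In lipogenesis, 13 of 22 members lay below control 1 and the median was -0.16. Srebf1, the transcription factor that drives fatty acid synthesis, had 5.90, 5.86 and 6.03 in G12 livers, against 6.59, 6.37 and 6.64 in control 1 livers. These did not overlap, and its difference was -0.60 ± 0.19 (adjusted p = 0.273). The G12 values of Srebf1 lay near the bottom of the scale, where female-specific Cyp3a44 had 5.75 in its lowest male. The size of this difference is therefore uncertain. Acacb, the mitochondrial acetyl-CoA carboxylase, had 8.85, 9.09 and 9.17 in G12 livers, against 9.99, 9.38 and 9.57 in control 1 livers, a difference of -0.61 ± 0.23. In glycolysis and fructose metabolism 6 of 11 members were below control 1, and beside Pfkl the regulator Pfkfb3 had -0.62 (adjusted p = 0.399). Gluconeogenesis and glycogen had 12 of 18 below and a median of -0.06, with Foxo1, a transcription factor of fasting, at -0.62 ± 0.23 (adjusted p = 0.329). Fatty acid oxidation had 16 of 30 above and a median of 0.04, with Hadha at -0.42.

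Acute phase genes lay mostly above control 1, 21 of 26, with a median of 0.26. Saa2, a serum amyloid, had 12.05, 13.09 and 10.79 in G12 livers, against 9.89, 10.56 and 9.48 in control 1 livers. All G12 livers were higher, but they differed among themselves by over 2 log2, and the difference of 2.00 ± 1.13 had an adjusted p of 0.575. Apcs, serum amyloid P, had 10.53, 10.63 and 10.58 in G12 livers, against 8.93, 10.33 and 9.50 in control 1 livers, a difference of 0.99 ± 0.48 (adjusted p = 0.499). Hp, haptoglobin, had a difference of 0.48 and Il1r1, an interleukin 1 receptor, of 0.72. The list of 11 inflammatory cytokines and chemokines had a median of 0.04, and interferon response genes had 16 of 23 below control 1 and a median of -0.20, with Ifit3 at -0.46.

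Phase II conjugation and NRF2 target genes had 23 of 32 members above control 1 and a median of 0.17, with Txnrd1, thioredoxin reductase, at 0.46 (adjusted p = 0.357) and Gstm6, a glutathione transferase in the zone, at -0.80. Xenobiotic cytochrome P450 genes had 13 of 25 above and a median of 0.00336, with Cyp2d22 at 0.72 and the female-specific Cyp2b13 at -0.81. Bile acid genes had 8 of 24 above and a median of -0.02; Cyp8b1, which sets the share of cholic acid, had 9.13, 9.41 and 8.92 in G12 livers, against 8.11, 8.74 and 7.95 in control 1 livers. It separated the groups, with a difference of 0.89 ± 0.40 (adjusted p = 0.444).

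Genes of the endoplasmic reticulum stress response had 15 of 21 members above control 1 and a median of 0.16. Xbp1, a transcription factor of that response, had 11.75, 11.96 and 12.38 in G12 livers, against 11.29, 11.61 and 11.58 in control 1 livers, a difference of 0.53 ± 0.22 (adjusted p = 0.387). Proteasome genes had 23 of 34 above and a median of 0.13, with Psma6 at 0.56, Psmd14 at 0.67 and Psme1, a subunit of the immune activator, at -0.58. Heat shock genes had 13 of 20 above, a median of 0.13 and Hspa4l at 0.46 (adjusted p = 0.310). Respiratory chain genes had 26 of 49 above and a median of 0.06, with cytochrome c, Cycs, at 0.61, and cytosolic ribosomal protein genes had 24 of 46 above, a median of 0.01 and Rps23 at 0.32.

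**Figure D4:**
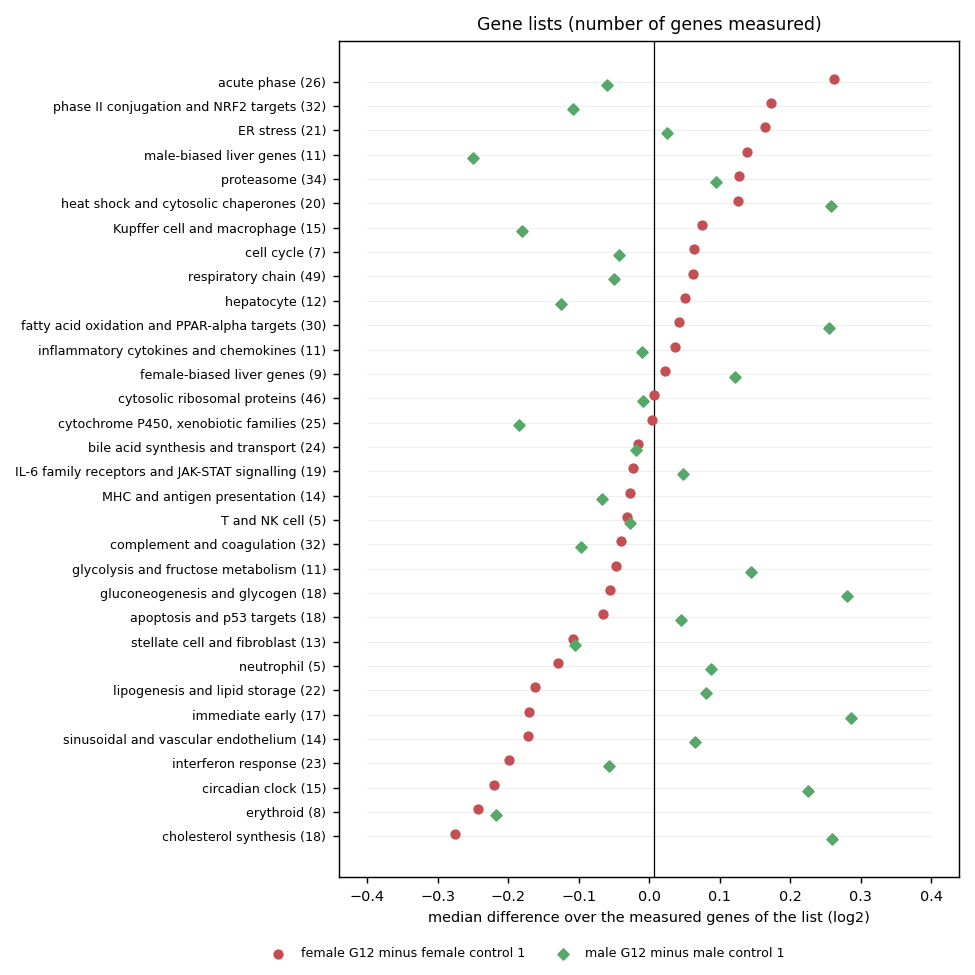
Median difference (horizontal axis, log2) over the measured genes of each list with 5 or more of them (rows, with the number measured), for female G12 minus female control 1 (red circles) and male G12 minus male control 1 (green diamonds); the vertical line is the median of all genes in females. In females the medians run from -0.28 for cholesterol synthesis to 0.26 for the acute phase. Circadian clock, immediate early and cholesterol synthesis genes have medians below the line in females and above it in males. So do the lists of lipogenesis, gluconeogenesis, glycolysis, apoptosis, IL-6 family receptors, endothelium and neutrophils. Other lists, such as the acute phase, lie above the line in females and below it in males.

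Circadian clock genes had 10 of 15 measured members below control 1 and a median of -0.22, which was -0.11 with the zone left out, the largest such move among the list medians given here. At an unadjusted p under 0.05, 5 were lower and 1 higher, where over all genes 5.37% were lower and 4.69% higher, and none passed the adjusted test. Usp2, a deubiquitinase with rhythmic expression, had 9.36, 8.39 and 9.33 in G12 livers, against 10.14, 9.79 and 9.96 in control 1 livers; the probe lies in the zone, and its difference was -0.93 ± 0.27, or -0.61 with the zone left out. Noct, the rhythmic phosphatase nocturnin, had 9.46, 9.56 and 9.42 in G12 livers, against 10.12, 9.86 and 10.32 in control 1 livers. The G12 livers lay within 0.2 log2 of one another and below every control, a difference of -0.62 ± 0.24 (adjusted p = 0.357). Nfil3, a repressor in the output of the clock, had 8.47, 8.60 and 8.53 in G12 livers, against 8.12, 7.94 and 7.81 in control 1 livers, the opposite order, with a difference of 0.58 ± 0.23 (adjusted p = 0.357). Hlf, a PAR bZIP factor, had -0.44 and Ciart, a repressor of CLOCK and BMAL1, -0.50; these 2 were named after their values were seen.

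Per1 had 8.57, 9.23 and 8.68 in G12 livers, against 9.81, 9.14 and 9.51 in control 1 livers. Replicate 2 of G12 lay above replicate 2 of control 1, so the groups overlapped, and the difference was -0.66 ± 0.20 (adjusted p = 0.262), or -1.24 within slide 6 and 0.09 within slide 4. Per1 lies outside the dimmed zone. The promoters of Per1 and Ciart are printed because both hold the E-box CACGTG through which CLOCK and BMAL1 act, and both genes were among the 5 lower clock genes. They are RefSeq windows on GRCm38.p6, 300 bases from 250 before to 50 after the start, given 5′ to 3′ on the gene's strand with each E-box in capitals. The first is chr11:69098699-69098998 (plus strand) and the second chr3:95882179-95882478 (minus strand).
Per1: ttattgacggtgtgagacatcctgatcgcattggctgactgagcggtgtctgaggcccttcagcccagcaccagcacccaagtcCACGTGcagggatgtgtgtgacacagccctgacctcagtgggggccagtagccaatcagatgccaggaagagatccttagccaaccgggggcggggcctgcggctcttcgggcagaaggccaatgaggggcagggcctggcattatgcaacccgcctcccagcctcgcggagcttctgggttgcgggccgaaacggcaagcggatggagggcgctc
Ciart: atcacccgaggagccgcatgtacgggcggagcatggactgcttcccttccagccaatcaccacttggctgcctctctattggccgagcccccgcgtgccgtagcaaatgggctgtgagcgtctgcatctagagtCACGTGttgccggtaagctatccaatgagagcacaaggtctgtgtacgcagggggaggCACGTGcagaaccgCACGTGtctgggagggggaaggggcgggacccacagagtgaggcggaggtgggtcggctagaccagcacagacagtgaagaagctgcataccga
The motif, which reads the same on both strands, was found in 3 of the 13 clock genes that have a promoter entry (Per1, Ciart and Tef) and in 8.09% of all genes with an entry. Per1 has another promoter entry without it. A match is a description of the letters in this window.

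Immediate early genes, which answer quickly to growth signals and to stress, had 14 of 17 measured members below control 1 and a median of -0.17. Dusp1, a phosphatase of MAP kinases, had 7.04, 8.08 and 7.27 in G12 livers, against 7.89, 8.81 and 7.95 in control 1 livers. Both replicate 2 livers stood above the others of their group, and within slides 6 and 4 the G12 liver was the lower one, a difference of -0.75 ± 0.33 (adjusted p = 0.436). Klf2, a factor of endothelial cells and lymphocytes, had 7.94, 8.22 and 7.48 in G12 livers, against 8.47, 8.44 and 8.33 in control 1 livers, a difference of -0.54 ± 0.19. Ccn1, a matricellular protein, had -0.35.

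Markers of other cell types were read in the same way. Of 14 endothelial markers measured, 9 lay below control 1, with a median of -0.17, and 6 were lower at an unadjusted p under 0.05, as were 5.37% of all genes; with the zone left out, 5 markers were. Kdr, the VEGF receptor VEGFR2, had 8.43, 8.17 and 8.36 in G12 livers, against 9.27, 8.97 and 8.48 in control 1 livers, a difference of -0.58 ± 0.19 (adjusted p = 0.292). Vwf had -0.50, the scavenger receptor Stab1 -0.45 and Eng, which lies in the zone, -0.36. The summed endothelial level ran from 12.5 to 12.6 in G12 and from 12.5 to 12.8 in control 1. Of 13 stellate cell and fibroblast markers 9 lay below, with Col3a1, a fibrillar collagen, at 6.78, 6.89 and 6.58 in G12 livers, against 7.26, 7.42 and 7.32 in control 1 livers. That difference was -0.58 ± 0.18 (adjusted p = 0.274), and Col1a2 had -0.47. The summed stellate level ran from 13.4 to 13.8 in G12 and from 13.5 to 13.8 in control 1. Hspg2, a product of endothelial and stellate cells, was lower beside these lists, whose part in its difference was not tested. Erythroid markers had 6 of 8 below and a median of -0.24, with Alas2, of haem synthesis, at -0.65, and Kupffer cell markers 10 of 15 above and a median of 0.07.

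Pancreatic acinar transcripts were present in some livers of both groups. Ctrb1, a chymotrypsinogen, had 13.00, 14.43 and 5.76 in G12 livers, against 6.59, 11.14 and 11.46 in control 1 livers. Amy2a5, pancreatic amylase, had 11.38, 13.04 and 9.63 in G12 livers, against 8.81, 10.38 and 10.97 in control 1 livers. G12 replicates 1 and 2 were the highest and the groups overlapped for both genes. These were the 2 measured genes of 30 listed, and their part in the other results was not tested. No gene of the islet and muscle lists was measured.

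The next question was whether G12 and its controls differed by another amount in females than in males. The test of that difference shares no arrays between the sexes, and 3 of 8996 genes passed it (0.0333%), Tob2, Pfkl and Per1, all with a lower value in females. In males, Tob2 had 9.16, 8.57 and 8.45 in G12 livers, against 8.00, 8.42 and 8.50 in control 1 livers. The male groups overlapped, with a difference of 0.42 ± 0.27, and the female difference minus the male one was -2.25 ± 0.38 (adjusted p = 0.0293). Pfkl had 7.70, 7.59 and 7.32 in male G12 livers, against 7.31, 7.29 and 7.27 in male control 1 livers. The difference between the sexes was -0.87 ± 0.15 for Pfkl (adjusted p = 0.0293).

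Per1 had 8.97, 8.77 and 8.99 in male G12 livers, against 8.02, 7.84 and 8.28 in male control 1 livers. All male G12 values lay above all male controls, with a difference of 0.87 ± 0.20 (adjusted p = 0.726), opposite in sign to females, and the difference between the sexes was -1.53 ± 0.28 (adjusted p = 0.0473). Noct (-1.46, adjusted p = 0.170) and Usp2 (-1.50, 0.186) had differences between the sexes of the same sign that did not pass. Insig2, which holds SREBP in the endoplasmic reticulum, had 11.26, 11.27 and 11.10 in female G12 livers, against 9.87, 10.37 and 10.73 in female control 1 livers. In males it had 10.43, 10.10 and 10.54 in G12 livers, against 11.09, 11.53 and 11.59 in control 1 livers. Neither pair of groups overlapped and the signs were opposite, and the difference between the sexes was 1.93 ± 0.41 (adjusted p = 0.104). Rgma, a co-receptor of bone morphogenetic proteins, had 1.24 (adjusted p = 0.170).

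With the dimmed zone left out on the array of female G12 replicate 2, 0 genes passed the test between the sexes in limma, with 784 at an unadjusted p under 0.05. Tob2 then had -2.04 (adjusted p = 0.107), Pfkl -0.81 (0.114) and Per1 -1.53 (0.107). Per1 lies outside the zone, so its values and its difference were the same as with the zone kept. Only its adjusted p, 0.0473 with the zone kept, was changed. Leaving out 1 of the 12 arrays at a time, Per1 passed in 3 of 12 cases and Tob2 and Pfkl in 4 of 12. The count of genes then ran between 0 and 52, the highest without female control 1 replicate 2; it was 6 without male G12 replicate 2, 1 without female G12 replicate 2, and 0 without female G12 replicate 1, female control 1 replicate 1 or 3, male G12 replicate 1 or any male control 1 array. With the replicate block 1 gene passed, Tob2 (adjusted p = 0.0449), while Per1 had 0.0615 and Pfkl 0.0748. With slide in the model 73 genes passed, among them Per1 (adjusted p = 0.0344), Tob2 (0.0135) and Pfkl (0.0173). With slide and replicate number both as blocks none of the 3 passed, with adjusted p values of 0.137 for Per1, 0.0660 for Tob2 and 0.129 for Pfkl.

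**Figure D5:**
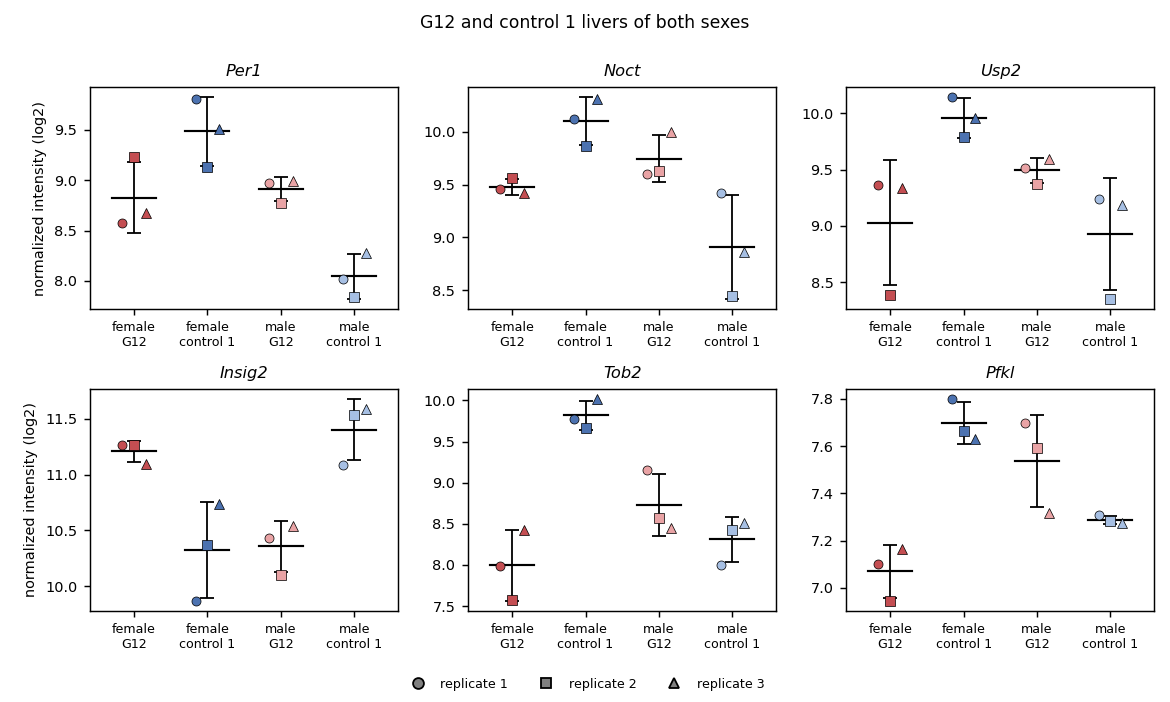
Normalized log2 intensity (vertical axes, which start above 0 and differ between panels) of 6 genes in G12 and control 1 livers of females and males; points are mice, with the marker shape giving the replicate number, and lines and bars are means ± SD. Per1, Noct and Usp2 sit lower in female G12 than in female control 1 and higher in male G12 than in male control 1 by their means, and Insig2 shows the opposite order.

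G12 was also set directly against G35, the other chicory genotype, in females. No gene passed in limma, 246 genes (2.73%) had an unadjusted p under 0.05, and with replicate number and slide together as blocks 1 gene passed. The lowest adjusted p in limma was 0.99994, so no gene came near the threshold. Above G35, the lowest unadjusted p values were those of Snai2, a transcription factor of mesenchymal cells, and Parp9, an interferon-induced ADP-ribosyltransferase. Snai2 had 7.01, 7.59 and 7.21 in G12 livers, against 6.28, 7.02 and 6.46 in G35 livers, a difference of 0.69 ± 0.20. Parp9 had 8.65, 8.70 and 8.30 in G12 livers, against 7.96, 8.20 and 8.03 in G35 livers, and these did not overlap. Below G35 was Cpe, carboxypeptidase E, at -0.87 ± 0.21; its probe lies in the span of the left-out features, and without that array's value the difference was -0.55. Also below was Arid5a, an RNA-binding protein that stabilizes inflammatory transcripts, at -0.39 ± 0.11. The 3 control 1 females serve both decoctions, so each one's difference from them is given only side by side. Against control 1, Tob2 had -1.83 in G12 and -1.16 in G35, Pfkl -0.63 and -0.37, Aatf -1.13 and -0.83, Inhbb 0.74 and 0.83, Nfil3 0.58 and 1.24, and Lifr -0.83 and -0.75, in the same order. The list medians were -0.22 in G12 and -0.28 in G35 for the circadian clock, 0.26 and 0.37 for the acute phase, and -0.20 and -0.23 for the interferon response. Further from 0 in G12 were cholesterol synthesis, with -0.28 and 0.01, and immediate early genes, with -0.17 and -0.05.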

How the data were processed

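Cy3 intensities of 30 arrays were deposited as whole numbers from 39 to 65535, and the submitters' processing notes name Agilent Feature Extraction as the reader; the version and signal column are not given in the sources used here. Since the deposited intensity values were not normalized, they were corrected with normexp (offset 50), quantile normalized and taken to log2. Of 15505 probes, 12544 had 1 gene symbol, 2961 none and 0 several, and 0 symbols changed on lookup in RefSeq. A gene took its probe with the highest mean (1869 genes had several), giving 8996 genes. All arrays entered 1 limma fit (3.58.1, R 4.3.3) of 10 groups of sex and gavage with 20 residual degrees of freedom, with Benjamini-Hochberg adjustment over all genes. The fits with slide or replicate number as a block had 12. The function that tests genes was tried on simulated data for the main comparison and for the difference between the sexes. The fits with blocks and the comparison with G35 were not tried in this way.

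Residuals of same-numbered female G12 and control 1 arrays correlated at 0.394, 0.235 and 0.405, those of other pairs at -0.318 to -0.0123. Residuals cancel out within each group, so these correlations depend on one another. Replicate numbers were taken to pair the arrays in an alternative model. Numbers 1 and 2 also share a slide, so pairing by number and by slide cannot be told apart for them. Feature lines of 85 were chosen from the low features themselves.

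The members, gene lists and named genes were chosen with earlier results of these data known. Named were 12 genes each way by lowest p, 5 each way by largest difference at an unadjusted p under 0.05, up to 6 each way called with a block, up to 4 per list (values are given mainly for those at an unadjusted p under 0.05), up to 4 each way between the sexes or against G35, and 7 genes known from both sexes together. Alternatives covered the left-out features, single arrays, blocks, normalization, background, dim genes, empirical Bayes options and probes; leaving out the whole patch or the dimmed zone was added after seeing the data. Position on the slide was in no model.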

Additional observations from a re-analysis of the deposited data

Results flagged for a closer look

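The difference between G12 and control 1 in females minus that in males stood out for 3 genes by the test of that difference itself: Tob2 at -2.25, Pfkl at -0.87 and Per1 at -1.53. Tob2 and Pfkl lie in the dimmed zone of the array of female G12 replicate 2 and Per1 does not.

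Among the 2961 probes without a gene symbol, which the comparisons above do not use, 1 passed between female G12 and female control 1 when these probes were tested on their own. It was higher in G12 by 1.22 ± 0.22 (limma, adjusted p = 0.0400 over those probes), lay outside the left-out block, and is unnamed here; 197 of these probes had an unadjusted p under 0.05.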

How the results depend on the processing

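Between female G12 and female control 1, 5 genes passed. The count was 0 with the dimmed zone left out, 0 with the whole patch or the dimmed zone left out and a replicate block, 0 when only the compared groups were fitted and 1 on only the chicory arrays. Beside these counts of 0, limma gave 763, 1031, 1011 and 411 genes at an unadjusted p under 0.05. It was 2 with median centring, with 75th percentile scaling, and with replicate block and slide together, and 10 with trend and robust options. With slide it was 290 as a fixed and 96 as a random block, 161 and 31 with the whole patch left out, and 33 and 22 with the zone left out. Without 1 array at a time it ran from 0 to 33. Between the sexes, 3 genes passed, and 0 with the whole patch left out, with the zone left out, on only the groups compared or on only the chicory arrays, with 801, 784, 577 and 700 at an unadjusted p under 0.05. The count was 1 with the replicate block, with replicate block and slide together, with median centring and with 75th percentile scaling, 5 with trend and robust options, 73 and 30 with slide as a fixed and a random block, and 0 to 52 without 1 array. Between G12 and G35, 0 genes passed, also without any 1 array, and 1 with replicate block and slide together. The replicate block changed no call of a named gene other than those given above.

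Of 100 genes recomputed under the alternatives, the sign turned for Apob (-0.069 with no features left out, and -0.23 to 1.399 without 1 array, the lowest without control 1 replicate 1), for Ctrb1 (-0.35 to 3.99 without 1 array, below 0 without G12 replicate 2 or control 1 replicate 1) and for Pdia4 (-0.12 with replicate block and slide, against 1.04). Other list members, not recomputed throughout, could turn in the zone too, such as Eci2 (0.07 with the zone left out, against -0.63). The causes were not tested. With 3 mice a group and dimmed features on 1 array, differences in the zone rest on fewer arrays than elsewhere.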
